A study of Mus musculus with 2 samples.

Results

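The fibroblast growth factor (FGF) genes described here are 6 ligand genes (Fgf1, Fgf2, Fgf5, Fgf7, Fgf10 and Fgf18) and the 4 receptor genes Fgfr1 to Fgfr4. They were chosen by name, with earlier results of these data known, and all 10 were found among the 23176 genes of the deposited table. Poly(A)-selected RNA was sequenced from 2 mouse lines of embryonic day 14 striatal origin on a 129SvEv/CD1 background. STHdhQ7 has the genotype HdhQ7/Q7, and STHdhQ111 has the genotype HdhQ111/Q111, in which the huntingtin gene carries a long CAG repeat. Both lines were under passage 15, grew at 33 °C and were held at 39 °C for 2 days to halt division; they are known as lines immortalised with a temperature-sensitive large T antigen. Each line has 1 GEO sample whose title names 3 replicates, and the deposited table gives 1 combined value per line. The genotype and any other difference between these 2 lines therefore cannot be told apart. In bulk RNA, fewer cells of a type and less RNA per cell cannot be told apart either.

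FGF ligands are secreted proteins that bind receptor tyrosine kinases together with heparan sulfate chains of the cell surface, and the activated receptor passes the signal through adaptors to the RAS to ERK kinase cascade. Alternative splicing gives Fgfr1, Fgfr2 and Fgfr3 a IIIb and a IIIc form. Fgf7 and Fgf10, typical products of mesenchymal cells, bind the IIIb form of Fgfr2, whereas Fgf2, long used as a mitogen for neural progenitors in culture, prefers IIIc forms. Levels below are in FPKM, a count of sequenced fragments divided by transcript length and by the number of mapped fragments, so that levels can be set side by side between genes. A gene is referred to as called where the authors' deposited table gives a q (p adjusted over all 12740 tested genes) of 0.05 or less, which held for 13.5% of the tested genes.

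The series' title concerns DNA methylation, which in mammals falls mostly on cytosines of CG dinucleotides, so the bases before the start of the 3 ligand genes that differed between the lines are shown with each CG in capitals. They are the 250 bases before the start on the gene's own strand, from RefSeq's GRCm38.p6 table, in which 8 of the 10 genes had an entry. Fgf7 and Fgf18 were higher in STHdhQ111, and Fgf2 was lower.
Fgf7: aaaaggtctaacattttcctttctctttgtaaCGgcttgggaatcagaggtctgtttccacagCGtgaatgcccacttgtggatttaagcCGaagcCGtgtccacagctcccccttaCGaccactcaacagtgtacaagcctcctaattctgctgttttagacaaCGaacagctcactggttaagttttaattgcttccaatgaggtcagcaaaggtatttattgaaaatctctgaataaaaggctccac
Fgf18: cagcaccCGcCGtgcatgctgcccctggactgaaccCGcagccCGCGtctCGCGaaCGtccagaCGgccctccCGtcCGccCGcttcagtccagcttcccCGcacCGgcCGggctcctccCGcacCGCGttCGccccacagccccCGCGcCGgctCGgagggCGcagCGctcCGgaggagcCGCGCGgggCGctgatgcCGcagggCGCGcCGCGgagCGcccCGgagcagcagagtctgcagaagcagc
Fgf2: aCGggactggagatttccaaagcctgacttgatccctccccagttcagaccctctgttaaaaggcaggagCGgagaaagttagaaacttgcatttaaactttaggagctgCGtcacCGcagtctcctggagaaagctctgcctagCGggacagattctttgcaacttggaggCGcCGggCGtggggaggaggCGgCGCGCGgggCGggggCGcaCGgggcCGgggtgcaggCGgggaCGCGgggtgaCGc
These stretches lie at chr2:126034408-126034657 (plus strand, Fgf7), chr11:33147401-33147650 (minus strand, Fgf18) and chr3:37348403-37348652 (plus strand, Fgf2) of GRCm38.p6. The stretch of Fgf7 holds 6 CG dinucleotides, which is also the median over the 32851 promoters of that table. That of Fgf18 holds 37, more than 97.8% of the promoters have, and that of Fgf2 holds 20, more than 82.1% have. The pair of ligand genes that were higher in STHdhQ111 thus had unlike CG contents. A GC box (GGGCGG, either strand) was present in the stretches of Fgf18 and Fgf2 and not in that of Fgf7, against 32.7% of all promoters. The TATA box letters TATAAA (either strand) were in none of these 3, against 12.4% of all promoters. No methylation was measured in the samples used here.

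The receptors were led by Fgfr1 in both lines, but its lead was narrower in STHdhQ111. Fgfr1, the main FGF receptor of neural progenitors and mesenchymal cells (mm9, chromosome 8, 26629244 to 26686186), stood at 87.7 FPKM in STHdhQ7 against 29.2 FPKM in STHdhQ111. It fell 3.00-fold (95% interval 1.72 to 5.25), and the authors' deposited table has its log2 fold change at -1.59 ± 0.41 (implied standard error, q = 0.00167). The implied standard error is the deposited log2 fold change divided by the deposited test statistic, and the interval is built from it. Fgfr2 (chromosome 7, 137305965 to 137410322), the receptor that carries epithelial responses to Fgf7 and Fgf10, stood at 4.66 FPKM in STHdhQ7 against 12.1 FPKM in STHdhQ111. It rose 2.59-fold (95% interval 1.50 to 4.46), and the authors' deposited table has its log2 fold change at 1.37 ± 0.40 (implied standard error, q = 0.00687). The values are totals per gene and do not separate the IIIb from the IIIc form.

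The other two receptor genes were low and were left untested in the deposited table. Fgfr3 (chromosome 5, 34064373 to 34079717), a brake on bone growth, stood at 0.451 FPKM in STHdhQ7 against 0.459 FPKM in STHdhQ111. Fgfr4 (chromosome 13, 55254179 to 55270120), known for its part in bile acid control in liver, stood at 0.0171 FPKM in STHdhQ7 against 0.0112 FPKM in STHdhQ111. Summed over the 4 receptors, the level was 92.9 FPKM in STHdhQ7 against 41.8 FPKM in STHdhQ111. Fgfr1 made up 94.5% of that sum in STHdhQ7 and 70.0% in STHdhQ111, and Fgfr2 5.02% and 28.9%. Fgfr1 stood 18.8-fold above Fgfr2 in STHdhQ7 and 2.42-fold above it in STHdhQ111. The log2 fold change of Fgfr2 exceeded that of Fgfr1 by 2.96 (95% interval 1.83 to 4.08, taking the implied errors of the deposited values as independent).

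**Figure D1:**
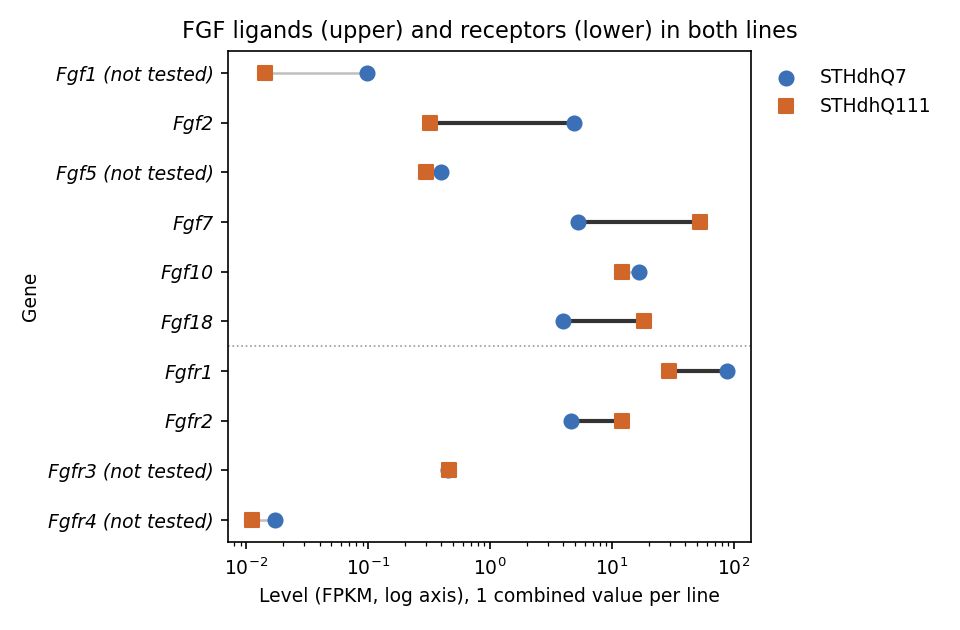
Level of each FGF gene in FPKM on a log axis, with a circle for STHdhQ7 and a square for STHdhQ111, each 1 combined value with no replicate spread. Dark bars join the values of the 5 genes with a q of 0.05 or less: Fgf7, Fgf18 and Fgfr2 lie to the right in STHdhQ111, and Fgf2 and Fgfr1 to the left.

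Among the ligands, Fgf7 and Fgf18 rose and Fgf2 fell. Fgf7, also called keratinocyte growth factor (chromosome 2), stood at 5.31 FPKM in STHdhQ7 against 52.5 FPKM in STHdhQ111. It rose 9.90-fold (95% interval 4.27 to 22.9), and the authors' deposited table has its log2 fold change at 3.31 ± 0.62 (implied standard error, q = 3.01e-06). With that level Fgf7 exceeded 93.5% of all genes of the table in STHdhQ111, against 64.1% in STHdhQ7. The table gives Fgf7 the same merged locus (125684954 to 125971987) as Galk2, a galactose-phosphorylating kinase, which was uncalled at 21.7 and 20.5 FPKM (the authors' q = 0.994 in the deposited table). In GENCODE M21 (GRCm38) Fgf7 and Galk2 share 0 bases. The provisional gene 4930525F21Rik, in the same merged locus, was untested at 0.0123 and 0.0246 FPKM.

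Fgf18, a ligand of skeletal and lung development (chromosome 11, 33017431 to 33047400), stood at 4.001 FPKM in STHdhQ7 against 18.4 FPKM in STHdhQ111. It rose 4.60-fold (95% interval 2.42 to 8.72), and the authors' deposited table has its log2 fold change at 2.20 ± 0.47 (implied standard error, q = 6.93e-05). The rises of Fgf7 and Fgf18 were not separated from each other: the log2 fold change of Fgf7 was larger by 1.11, with a 95% interval from -0.42 to 2.63 from the deposited values.

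Fgf2, the basic FGF (chromosome 3, 37247575 to 37303752), stood at 4.89 FPKM in STHdhQ7 against 0.325 FPKM in STHdhQ111. It fell 15.1-fold (95% interval 3.52 to 64.7), and the authors' deposited table has its log2 fold change at -3.91 ± 1.07 (implied standard error, q = 0.00333). The low level in STHdhQ111 makes the size of this fall imprecise, and on the log2 scale of (FPKM + 0.5) the ratio was -2.71. Nudt6, the gene that runs tail to tail into Fgf2 on the opposite strand, stood at 5.82 FPKM in STHdhQ7 against 1.98 FPKM in STHdhQ111 and was not called (the authors' q = 0.0868 in the deposited table). In GENCODE M21 the exons of Nudt6 cover 9.44% of the exonic bases of Fgf2, while the table sets the 2 loci 153 bases apart. The transcript Gm43439, on the same strand as Fgf2, covers 3.76% of the exonic bases of Fgf2. The library method is not described as marking strand, so reads of such a shared stretch cannot be assigned to 1 of the genes. Of the other called FGF genes, Fgfr1 shares 1.66% of its exonic bases with an antisense transcript and Fgfr2 3.04% with Ctbp2 in GENCODE M21, and Fgf7 and Fgf18 share none with another gene.

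Fgf10 (chromosome 13, 119503506 to 119581380), needed for the outgrowth of limb and lung buds, was the most abundant ligand in STHdhQ7. It stood at 16.6 FPKM in STHdhQ7 against 12.1 FPKM in STHdhQ111 and did not pass the test (log2 fold change -0.45 ± 0.40, implied standard error, with q = 0.690 in the authors' deposited table). Its interval, from -1.24 to 0.33 on the log2 scale of the deposited values, still allows a 2.36-fold fall. The remaining ligands were low and untested. Fgf5, a regulator of the hair cycle (chromosome 5, 98683203 to 98706049), stood at 0.397 FPKM in STHdhQ7 against 0.299 FPKM in STHdhQ111. Fgf1, the acidic FGF (chromosome 18), stood at 0.0979 FPKM in STHdhQ7 against 0.0142 FPKM in STHdhQ111. The provisional gene Gm5820, in the same merged locus as Fgf1, was untested as well at 0.132 and 0.128 FPKM.

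**Figure D2:**
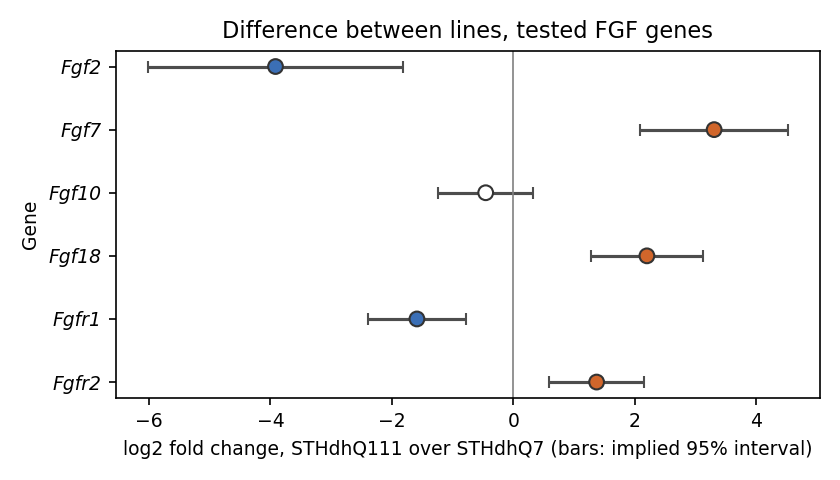
Deposited log2 fold change of the 6 tested FGF genes, STHdhQ111 over STHdhQ7, with bars for the 95% interval from the implied standard error. Filled points passed a q of 0.05 or less; the open point, Fgf10, has an interval that spans 0.

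The make-up of the ligand mRNA differed accordingly. Summed over the 6 ligands, the level was 31.3 FPKM in STHdhQ7 against 83.7 FPKM in STHdhQ111. Fgf10 made up 53.0% of the sum in STHdhQ7 and 14.5% in STHdhQ111. Fgf7 made up 16.9% in STHdhQ7 and 62.8% in STHdhQ111, whereas the share of Fgf2 was 15.6% and 0.388%. Fgf7 was at 0.319 times the level of Fgf10 in STHdhQ7 and at 4.33 times its level in STHdhQ111. The log2 fold change of Fgf7 exceeded that of Fgf10 by 3.76 (95% interval 2.32 to 5.21 from the deposited values). Summed ligand mRNA was thus below summed receptor mRNA in STHdhQ7 and above it in STHdhQ111, on the FPKM scale and with no replicate spread for either sum.

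**Figure D3:**
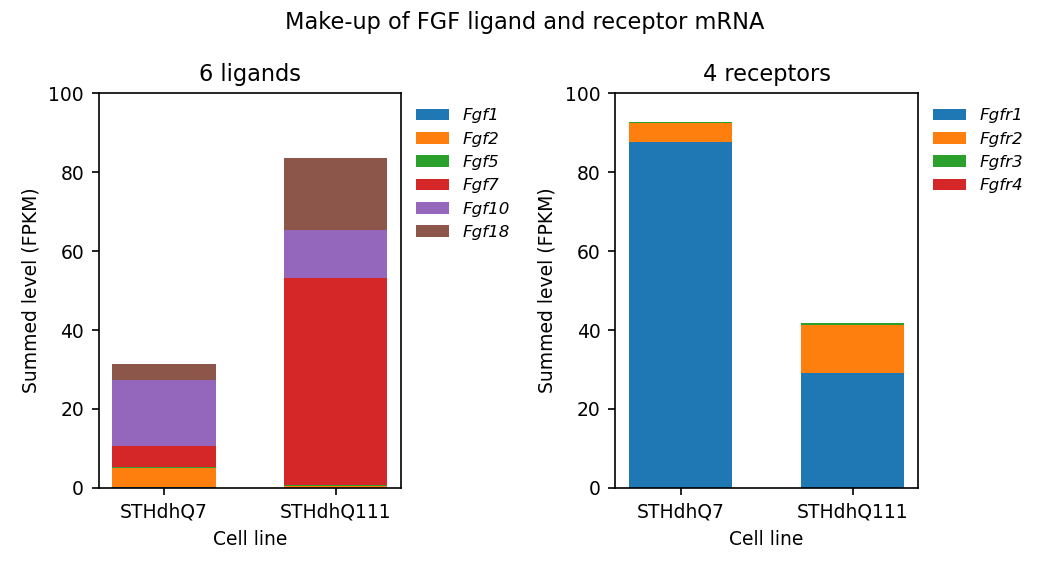
Stacked bars of the summed level in FPKM of the 6 ligands (left) and the 4 receptors (right) in each line, each segment being 1 gene. The ligand bar is 31.3 in STHdhQ7 and 83.7 in STHdhQ111, mostly Fgf7 in the latter; the receptor bar is 92.9 and 41.8, mostly Fgfr1 in both.

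The order of the 10 levels was Fgfr1, Fgf10, Fgf7, Fgf2, Fgfr2, Fgf18, Fgfr3, Fgf5, Fgf1 and Fgfr4 in STHdhQ7, from high to low. In STHdhQ111 it was Fgf7, Fgfr1, Fgf18, Fgf10, Fgfr2, Fgfr3, Fgf2, Fgf5, Fgf1 and Fgfr4. The combined values have no spread within a line, so neighbours were read as separated where they differed by more than the 95% bound from the implied standard errors of both genes. Those errors belong to each gene's change between the lines. A bound thus holds the error of both lines and can be wider than the spread within 1 line. This may apply to Fgf2 in STHdhQ7, as its error also holds that of its low level in STHdhQ111. In STHdhQ7 this held for Fgfr1 over Fgf10 (5.28-fold), Fgf10 over Fgf7 (3.13-fold) and Fgf18 over Fgfr3 (8.88-fold). In STHdhQ111 it held only for Fgfr2 over Fgfr3 (26.3-fold), and neither the 5 genes above that step nor the 5 below it were separated from their neighbours. Fgf2 crossed this divide: it stood with Fgf7, Fgfr2 and Fgf18 in STHdhQ7 and with Fgfr3 and Fgf5 in STHdhQ111.

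Of the 10 FGF genes 6 were tested, 3 were called higher and 2 lower, and 1 was not called. Over all tested genes 13.5% were called, 6.35% higher and 7.17% lower. The 4 untested genes were all under 0.5 FPKM in both lines, and the set was chosen with earlier results known, so the share among the tested 6 is a description only. The median log2 ratio of (FPKM + 0.5) was -0.09 over all 10 and 0.42 over the 6 tested, beside -0.05 over all tested genes, so its sign depends on whether the untested genes are counted. Requiring a change of at least 4-fold as well as the q left 3 called, Fgf2, Fgf7 and Fgf18, against 8.23% of tested genes. A stricter adjustment that allows for dependence between genes (Benjamini-Yekutieli) left 4, without Fgfr2, against 8.47%. All 5 remained at a q of 0.01 or less (9.61% of tested genes), at 0.1 or less (16.1%) and when q was adjusted only over tested genes averaging 1 FPKM or more (12.3%).

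The genes nearest to each called FGF gene were sought among 11461 other tested genes with full names, by distance in log2(FPKM + 0.5) over the 2 lines. Nearest to Fgf7 were Wnt10a (5.51 FPKM in STHdhQ7 against 54.7 FPKM in STHdhQ111, distance 0.0767) and Irf9 (6.36 and 45.3 FPKM, distance 0.320). Rab3il1 and Cd14 were nearest to Fgf18, Rragb and Cmbl to Fgf2, Slc9a3r1 and Mcm4 to Fgfr1, and Gla and Pnpla7 to Fgfr2, at distances from 0.0410 to 0.211. With 2 values per gene, such likeness says only that the levels in both lines were close.

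The other FGF genes were mostly silent. Of 12 further secreted ligands only Fgf21 was tested; 4 (Fgf3, Fgf6, Fgf16 and Fgf20) were listed at 0 in both lines, and no untested one exceeded 0.416 FPKM. Fgf21, a hormone-like FGF of metabolic control, rose from 0.465 FPKM in STHdhQ7 to 2.27 FPKM in STHdhQ111 (log2 fold change 2.29, implied standard error 0.77, the authors' q = 0.0244 in the authors' deposited table). Its co-receptor Klb stood at 0.0594 FPKM in STHdhQ7 against 0.0510 FPKM in STHdhQ111 and was untested. Of the 4 intracellular FGF homologous factors, which bind sodium channels, only Fgf11 was tested, and it was uncalled at 0.668 and 0.0496 FPKM.

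The genes that present FGFs at the cell surface held calls in both directions. Of 19 tested co-receptor, decoy receptor and binding protein genes 3 were called higher, 5 lower and 11 not at all (6.35% higher and 7.17% lower over all tested genes), with a median log2 ratio of 0.31. Fgfbp1, a secreted carrier that releases FGFs from the matrix, fell from 17.9 FPKM in STHdhQ7 to 1.24 FPKM in STHdhQ111 (log2 fold change -3.85, implied standard error 0.66, the authors' q = 2.07e-07 in the authors' deposited table). The glypicans, heparan sulfate proteoglycans with a lipid anchor, were split: Gpc4 rose from 36.3 to 123.5 FPKM, while Gpc2 fell from 3.12 to 0.381 FPKM and Gpc6 from 7.85 to 3.43 FPKM. The basement membrane proteoglycan perlecan (Hspg2) rose from 35.4 to 94.3 FPKM and the syndecan Sdc3 from 18.4 to 45.2 FPKM. The adhesion molecules Cdh2 and Ncam1, both known to bind Fgfr1, fell as well (68.1 to 20.96 FPKM for Cdh2, 29.8 to 9.32 FPKM for Ncam1). Sdc1 (97.4 and 99.9 FPKM) and Sdc4 (95.3 and 118.5 FPKM) were not called. The decoy receptor Fgfrl1, which lacks the kinase, stood at 17.2 FPKM in STHdhQ7 against 10.5 FPKM in STHdhQ111 and was not called.

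Of 14 tested enzymes that build and trim heparan sulfate, 4 were called lower (7.17% over all tested genes), 1 higher (6.35%) and 9 not at all. Their median log2 ratio was -0.57, with 9 below 0 and 5 above. The sulfotransferase Hs3st3b1 fell from 3.21 to 0.299 FPKM, the sulfotransferase Hs6st1 from 27.1 to 10.4 FPKM and the epimerase Glce from 12.6 to 5.22 FPKM. Heparanase (Hpse), which cuts the chains, fell from 6.99 to 1.92 FPKM. Sulf1, which removes 6-O-sulfate groups that FGF signalling needs, rose from 0.0836 FPKM in STHdhQ7 to 0.948 FPKM in STHdhQ111 (log2 fold change 3.50, implied standard error 0.85, the authors' q = 0.000705 in the authors' deposited table). Both levels are low, and on the log2 scale of (FPKM + 0.5) its ratio was 1.31. Its relative Sulf2 was far more abundant at 208.2 and 286.4 FPKM and was not called, nor was the chain-building Ext1 at 64.3 and 35.6 FPKM.

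Inside the cell, of 16 tested receptor adaptors and first enzymes that carry the signal, Crk rose (34.9 to 80.2 FPKM), Gab2 fell (5.38 to 1.32 FPKM) and 14 were not called, among them Shc1 (74.4 and 71.3 FPKM) and Ptpn11 (45.96 and 54.8 FPKM). The 2 calls among 16 are near the 13.5% over all tested genes; at an unadjusted p of 0.05 or less there were 3 higher and 3 lower, against 9.42% and 11.8% of all tested genes. The list's median log2 ratio was -0.02. The core adaptor Frs2, which docks on the receptors, was uncalled at 16.9 and 21.7 FPKM. Of the 13 tested genes of the RAS to ERK cascade the authors' Cuffdiff test called 0, against 13.5% of all tested genes. With 13 genes, 0 calls is not far from that share. At an unadjusted p of 0.05 or less there was 1, Mapk3 (121.6 and 72.6 FPKM), against 21.2% of all tested genes. The cascade's median was -0.05, and Map2k2 stood at 88.0 FPKM in STHdhQ7 against 85.6 FPKM in STHdhQ111.

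The inhibitors of FGF and ERK signalling and the transcription factors known to respond to it held calls in 1 direction. Of 14 tested inhibitors 4 were called lower (Spry4, Spred1, Spred2 and Rasa1) and 0 higher by the authors' Cuffdiff test. Over all tested genes 7.17% were called lower and 6.35% higher. At an unadjusted p of 0.05 or less, 8 of the 14 were lower and 1 higher, against 11.8% and 9.42% of all tested genes. The median log2 ratio was -0.87 and 11 of the 14 lay below 0. Spry4 fell from 2.41 FPKM in STHdhQ7 to 0.0927 FPKM in STHdhQ111, a level near 0 that makes the size of its fall imprecise. Spred2, which restrains RAF, fell from 24.8 to 9.02 FPKM and Spred1 from 31.6 to 8.57 FPKM. Rasa1, a GTPase activator that shuts RAS off, fell from 20.2 to 8.89 FPKM. Rasa1 and Nf1 were listed as feedback inhibitors, but whether they respond to ERK signalling in these lines was not tested. Nf1 was the 1 gene of this list that was higher at an unadjusted p of 0.05 or less. Its log2 fold change was 0.878, and it was not called (p = 0.0302 and q = 0.163 in the authors' Cuffdiff test). Spry1 (16.99 and 9.12 FPKM) and Errfi1 (11.6 and 17.2 FPKM) were not called. Of 11 tested FGF-responsive transcription factors the ETS factors Etv1, Etv4 and Etv5 were called lower and 0 were called higher; at an unadjusted p of 0.05 or less there were 4 lower and 1 higher. Etv4 fell from 19.1 FPKM in STHdhQ7 to 2.94 FPKM in STHdhQ111, and Etv5 from 15.6 to 3.38 FPKM. Etv1 fell from 2.40 FPKM in STHdhQ7 to 0.0277 FPKM in STHdhQ111, and the authors' deposited table has its log2 fold change at -6.44 ± 1.61 (implied standard error). That size rests on a level near 0 in STHdhQ111, and on the log2 scale of (FPKM + 0.5) the ratio of Etv1 was -2.46. The median of this list was -0.64; Egr1 (53.1 and 38.2 FPKM) and Ets2 (26.2 and 48.7 FPKM) were not called. Earlier results of these data already showed part of the falls in these lists, so these falls are no independent evidence of direction.

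**Figure D4:**
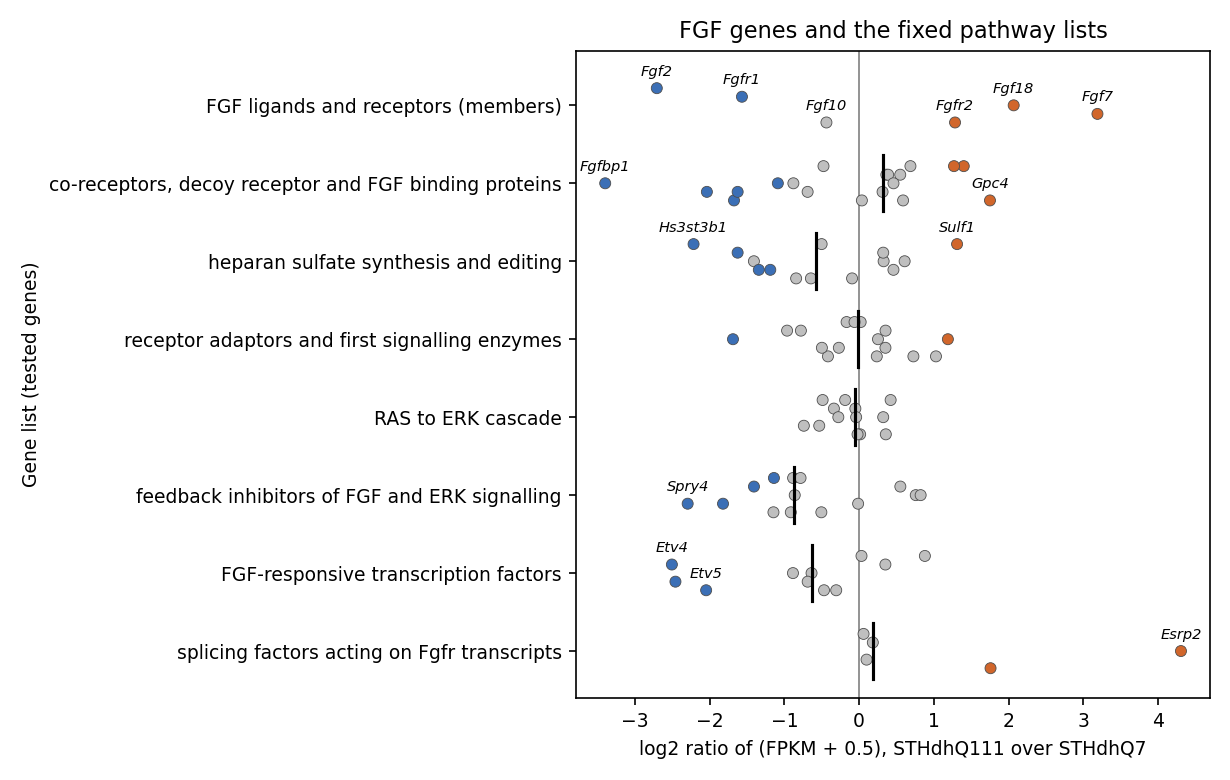
Log2 ratio of (FPKM + 0.5), STHdhQ111 over STHdhQ7, for the tested genes of the FGF set and of the fixed pathway lists with at least 4 tested genes; coloured points were called, grey points were not, and black ticks are medians of the pathway lists. The list labelled feedback inhibitors (median -0.87) and the responsive factors (median -0.64) have all their coloured points on the left. The RAS to ERK cascade (median -0.05) has none among 13 tested genes, against 13.5% called over all tested genes.

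Among the genes listed as splicing factors of Fgfr transcripts, Esrp2 had the largest change. Esrp2, an epithelial splicing regulator that promotes the IIIb form of Fgfr2, rose from 0.0848 FPKM in STHdhQ7 to 11.1 FPKM in STHdhQ111 (log2 fold change 7.03, implied standard error 0.77, the authors' q listed as 0 in the authors' deposited table). On the log2 scale of (FPKM + 0.5) its ratio was 4.31. Its paralogue Esrp1 stood at 0 in STHdhQ7 and was untested. Of the 5 tested genes of this list Esrp2 and Celf4, an RNA-binding protein (1.17 to 5.15 FPKM), were called higher and 0 lower. Whether Celf4 acts on Fgfr transcripts was not tested. Over all tested genes 6.35% were called higher and 7.17% lower. At an unadjusted p of 0.05 or less there were 2 higher and 0 lower, against 9.42% and 11.8% of all tested genes. The abundant Ptbp1 (105.4 and 109.8 FPKM) and Rbfox2 (48.9 and 52.5 FPKM) were not called. Esrp2, Fgfr2 and Fgf7 were all higher in STHdhQ111, and the gene-level table does not show which form of Fgfr2 was made. The epithelial markers Cdh1 (0.151 and 0.113 FPKM) and Epcam (0.05002 and 0.477 FPKM) were untested and low, and Krt8 fell from 6.13 to 1.4005 FPKM. The 4 listed epithelial markers summed to 6.84 FPKM in STHdhQ7 against 2.05 FPKM in STHdhQ111, mostly Krt8 in both. Epcam went the other way.

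Some cell type markers also differed between the lines. The 6 markers of mesenchymal cells summed to 654.4 FPKM in STHdhQ7 against 2292 FPKM in STHdhQ111, and none of the 6 was at 0. Of 5 tested, Col1a1 (451.9 to 1487 FPKM) and Col1a2 (11.5 to 532.6 FPKM) were called higher and 0 lower. Over all tested genes 6.35% were called higher and 7.17% lower. Col1a1 and Col1a2 held most of the difference in the sum. The tested Col3a1 (145.7 and 206.3 FPKM), Dcn (20.4 and 30.5 FPKM) and Pdgfrb (24.8 and 35.5 FPKM) were not called. The 5 neural progenitor markers summed to 123.1 FPKM in STHdhQ7 against 1.63 FPKM in STHdhQ111, with all 3 tested called lower, 0 higher and Hes5 at 0 in both lines. The part of either marker group in the FGF differences was not tested. Most markers of the labelled striatal origin were scarce. Under 0.5 FPKM in both lines were 5 of 6 striatal projection neuron genes and all 4 pan-neuronal genes, with Drd1a at 0 in both. The exception was Penk (2.85 and 6.49 FPKM), which held most of the striatal sum. Penk was higher in STHdhQ111 but not called (log2 fold change 1.19, the authors' q = 0.215 in the deposited table). Astrocyte markers summed to 10.7 and 9.43 FPKM, nearly all Aldh1l1, with Aqp4 at 0 in both lines. The oligodendrocyte lineage markers summed to 3.48 and 9.76 FPKM, mostly Pdgfra, with Olig2 at 0 in both lines. Microglial or leukocyte markers stayed at 0.162 and 0.123 FPKM in sum, and endothelial markers at 0.447 and 1.63 FPKM, of which Tek was called higher.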

How the data were processed

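Per the labels' protocols, poly(A) RNA was fragmented, copied with random primers and sequenced in both lines. TopHat 1.4.0, Bowtie 0.12.7, Cufflinks 2.0.2, Cuffdiff and the mm9 build were used, per the submitters' processing notes; the annotation is not given in the sources used here. In 1 deposited table stand the authors' FPKM per line, combined over replicates, their log2 fold change and test statistic (an unbounded score), and their p-value and q-value. Nothing states that replicates were separate cultures, so their p-values measure only the spread between those replicates, which may be technical. The depth is unknown: among 1276 genes of very low FPKM no common ratio appeared. FPKM summed to 426021 and 427714. The table marks 12740 genes as tested.

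No replicate values were used, so no test was run here. Implied standard errors are the deposited log2 fold change over the statistic; the deposited p-value matched the normal tail of the statistic to within 2.7e-06. Locus starts were raised by 1. The FGF genes, the 10 other gene lists and the markers were chosen with earlier results of these data known. Named were all FGF genes and the called genes of each list (up to 6 and, for the co-receptors, also the 2 beyond). Also named were the 2 most abundant uncalled genes of each list, overlapping genes, and the 2 nearest genes. Fgfrl1, Frs2, Klb, Esrp1, Nf1, Penk and the ligands at 0 were added after their values were seen. Alternatives covered threshold, adjustment, filter, fold, pseudocount and scaling. The code for standard errors and adjustments was checked on data simulated with the implied standard errors. Such a check cannot show that the errors of the deposited values are right. Python 3.11.15, numpy 2.4.6, pandas 2.3.3 and scipy 1.17.1 were used.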

Additional observations from a re-analysis of the deposited data

How the results depend on the processing

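The number of called FGF genes, 5, stayed at 5 with a q of 0.01 or 0.1 and among tested genes averaging 1 FPKM or more, was 4 with the Benjamini-Yekutieli adjustment, and was 3 with a minimum of 4-fold. Over all fixed lists together, the FGF genes included, 30 of 101 tested genes were called. The count was 24 at a q of 0.01, 36 at 0.1, 21 with Benjamini-Yekutieli, 29 with the filter and 15 with at least 4-fold. In the same order, from the main setting on, the shares over all tested genes were 13.5%, 9.61%, 16.1%, 8.47%, 12.3% and 8.23%. The lists were chosen with earlier results known, so these counts are a description only. The median log2 ratio of the FGF genes, -0.09, ranged from -0.20 (pseudocount 0.1) to -0.04 (centred), and was 0.42 over only the 6 that averaged 1 FPKM or more, a sign that the choice of genes sets. Each of the 5 called genes kept its direction when centred or scaled to the upper quartile, but these changes were small. The median used for centring was -0.05, and the upper quartiles were 25.0 FPKM in STHdhQ7 and 24.9 FPKM in STHdhQ111. A pseudocount cannot reverse a direction, so the pseudocounts bear only on the size of a ratio. No paired analysis was possible because the table holds 1 combined value per line; leaving out a replicate was not possible for the same reason. Without counts the depth cannot bound the low genes: Fgf1, Fgf5, Fgfr3 and Fgfr4 carry no test, and the fall of Fgf2 was -2.15 on the log2 scale with a pseudocount of 1 and -3.56 with 0.1.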
